A study of Mus musculus with 9 samples.

Results

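Transcription factors of enteroendocrine progenitors and their subtypes are described here, encoded by 9 genes: Neurog3, Neurod1, Insm1, Nkx2-2, Rfx6, Fev, Isl1, Pax4 and Pax6. They were chosen by gene symbol, and each of the 9 matched 1 of the 78239 rows of the deposited count table. All 9 were among the 20610 genes that passed the filter on low counts. Sorted gut epithelial cells came from mice of 8 weeks with the Lgr5-2A-eGFP allele, a reporter of the stem cell receptor Lgr5, and their polyadenylated RNA was sequenced. The allele is common to all 3 groups, and GFP sorting followed crypt chelation and TrypLE digestion, with a minimum of 30000 cells per colon fraction and 50000 per small intestinal fraction. Each group has 3 libraries, named here High 1 to 3 (GFP-high cells of the colon), Negative 1 to 3 (GFP-negative cells of the colon) and Intestine 1 to 3 (small intestine), after the group and replicate in their labels. The labels do not say which GFP fraction Intestine 1 to 3 are, so region and fraction cannot be told apart there. Nothing in the labels says whether libraries of a group come from separate animals, so p-values measure only the spread between these libraries.

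Enteroendocrine cells are the scattered hormone-secreting cells of the gut lining, and they arise from secretory progenitors of the crypt. Atoh1 opens the secretory fate where Notch signalling is low, and the basic helix-loop-helix factor Neurog3 then commits a progenitor to the endocrine lineage and is switched off again as the cell matures. Neurod1, Insm1, Nkx2-2 and Rfx6 act downstream of Neurog3 during differentiation. Pax4, Pax6, Isl1 and Fev take part in the choice and maintenance of hormone subtypes.

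The level of Lgr5 contradicted the labels of the colon pair numbered 2. It was 0.958 CPM (read counts scaled to library size with TMM, a trimmed mean of log ratios) in the library labelled High 2 against 62.1 CPM for the library labelled Negative 2. The other GFP-high libraries had 43.5 and 73.0 CPM, the other GFP-negative libraries 2.84 and 6.28 CPM, and small intestine 57.9 to 209 CPM. Library totals were 86621513 to 106673547 counts, at which 3 counts make 0.0232 to 0.0411 CPM. Results that compare the colon fractions as labelled are therefore also given without this pair.

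RefSeq promoter windows of build GRCm38.p6 were found for 7 of the 9 genes, in 8 windows of 250 bases before the start site. The sequences of 3 are shown, each shortened to the stretch that lies in no exon of GENCODE M21, because Neurog3 and Neurod1 were the members farthest apart in pattern over the libraries and Nkx2-2 had the only window with the E-box form CAGATG. Capitals mark E-boxes, the CANNTG element that basic helix-loop-helix factors such as Neurog3 and Neurod1 bind. The sequences run 5′ to 3′ on the strand of the gene.
Neurog3, chr10:62132840-62133089, plus strand: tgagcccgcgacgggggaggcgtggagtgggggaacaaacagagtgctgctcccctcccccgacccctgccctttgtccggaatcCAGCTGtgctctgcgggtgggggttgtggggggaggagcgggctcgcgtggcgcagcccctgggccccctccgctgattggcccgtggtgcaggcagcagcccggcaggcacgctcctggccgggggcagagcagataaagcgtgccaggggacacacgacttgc
Neurod1, chr2:79456786-79456886, minus strand: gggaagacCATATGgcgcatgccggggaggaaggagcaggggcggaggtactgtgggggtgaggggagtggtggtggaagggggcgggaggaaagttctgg
Nkx2-2, chr2:147186456-147186652, minus strand: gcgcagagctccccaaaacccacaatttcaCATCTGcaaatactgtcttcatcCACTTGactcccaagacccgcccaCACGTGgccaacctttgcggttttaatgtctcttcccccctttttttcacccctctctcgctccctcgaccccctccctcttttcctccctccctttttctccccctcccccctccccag

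Of the 8 windows, 5 held CANNTG, which reads the same on both strands, against 66.2% of 32851 promoter windows of the same length. CAGATG, searched on both strands and counted also as CANNTG, was in 1 of the 8 and in 14.4% of all windows. It is the CATCTG at 220 bases before the Nkx2-2 start, which is CAGATG on the other strand. The Neurog3 window held 1 E-box at 165 bases and the Neurod1 window 1 at 242 bases before the start. The windows of Rfx6 and Fev held none, Isl1 had 1, and of the 2 Pax6 windows 1 had an E-box at 20 bases before the start. These matches describe the letters of the windows only.

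Of the 9 genes, 8 had their highest level in the same library and their second highest in the same other library. Neurod1, Insm1, Nkx2-2, Rfx6, Fev, Isl1, Pax4 and Pax6 were all highest in the library labelled High 2 and all second in Negative 3. Over the 20610 genes tested, 9.57% were highest in that GFP-high library and 2.46% had this first and second place. Neurog3 ranked 4 of 9 in the first of these libraries and last, with no count, in the other. The plot of CPM by library shows this split between Neurog3 and the other members.

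**Figure D1:**
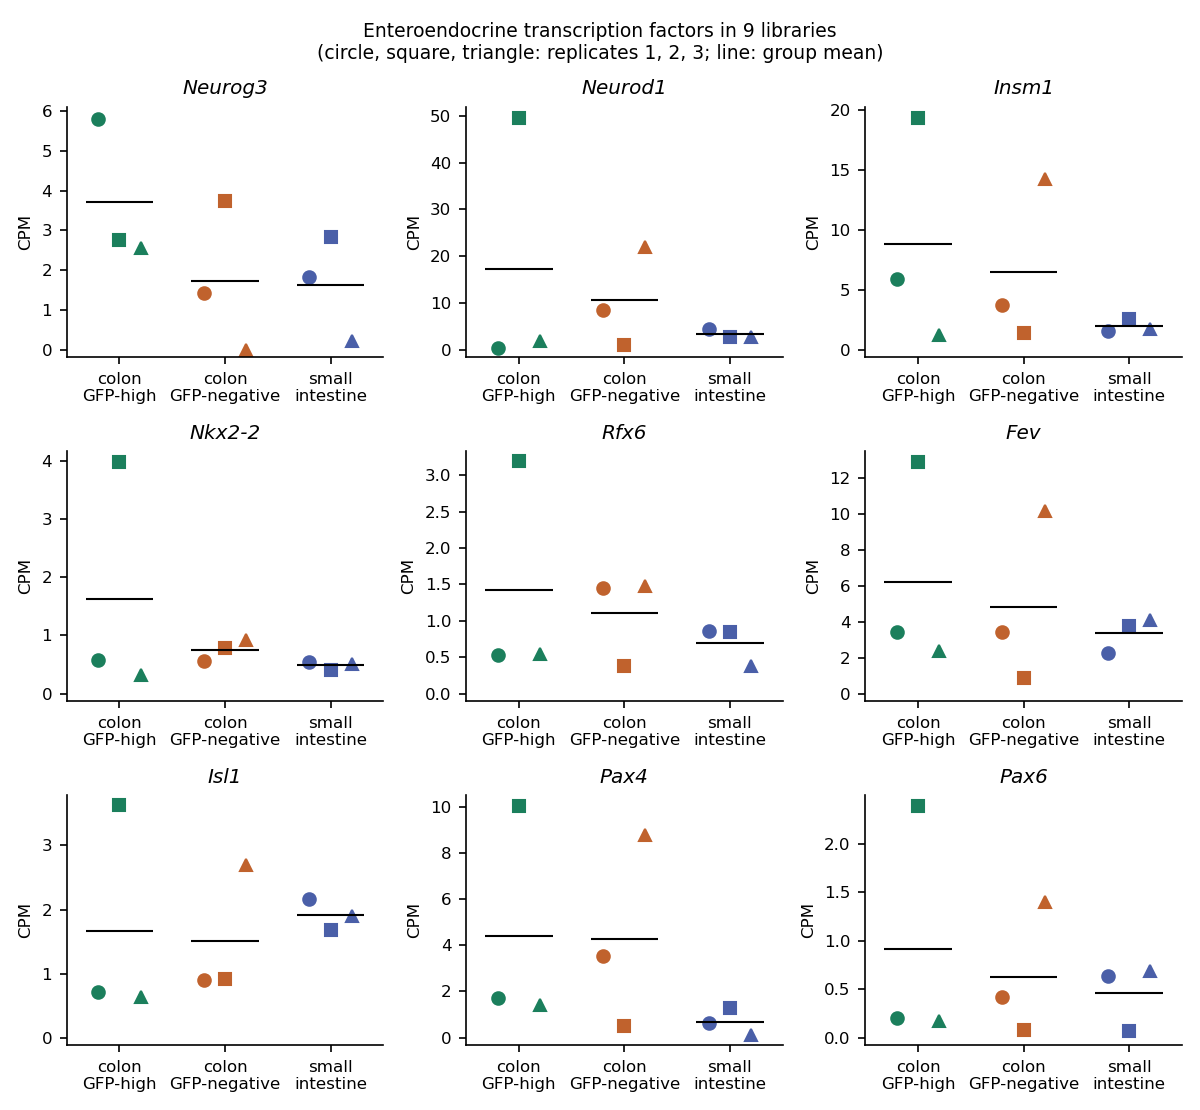
CPM (linear axes) of each of the 9 genes in each library, by group, with circles, squares and triangles for replicates 1, 2 and 3 and a line at the group mean. In 8 panels the GFP-high square is the highest point and the GFP-negative triangle the second, while in the Neurog3 panel that triangle is at 0 and the GFP-high circle is highest at 5.81 CPM.

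Neurog3 (ENSMUSG00000044312.5; chromosome 10, 62133090 to 62134763, plus strand, GENCODE M21 on GRCm38) is the initiating factor of the lineage. High 1 to 3 had 5.81, 2.75 and 2.56 CPM. Negative 1 to 3 had 1.44, 3.75 and 0 CPM. Intestine 1 to 3 had 1.82, 2.84 and 0.217 CPM. Neurog3 was highest in High 1 and the library labelled Negative 2, both with Lgr5 above 40 CPM, but Intestine 3, with the highest Lgr5 of all libraries, was the second lowest for Neurog3. The 3 groups overlapped. No read was counted in Negative 3, where 3 counts would make 0.0322 CPM, against 28 counts in Intestine 3 and 111 to 609 in the other 7 libraries. An exon of Fam241b on the opposite strand covers 273 of the 1674 exon bases of Neurog3, and the strand setting of the counting is not given in the sources used here. Fam241b stood at 20.1 to 45.3 CPM in all libraries and at 27.8 CPM in the library where Neurog3 had no count.

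Neurod1 (ENSMUSG00000034701.10; chromosome 2, 79452521 to 79456751, minus strand), a basic helix-loop-helix factor and direct target of Neurog3, varied most in absolute level. High 1 to 3 had 0.420, 49.4 and 1.86 CPM. Negative 1 to 3 had 8.58, 1.12 and 22.0 CPM. The libraries of the small intestine lay close together at 4.37, 2.69 and 2.79 CPM. The highest colon library was 118-fold above the lowest, both of them labelled GFP-high, and the small intestinal values lay inside the range of either colon group. In GENCODE M21, 201 of its 2729 exon bases are shared with a transcript of Cerkl on the same strand, which had at most 3.49 CPM.

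The ratio of Neurod1 to Neurog3 reversed between libraries. It was 0.0723 in High 1, 0.298 in the library labelled Negative 2 and 0.727 in High 3. It was 17.9 in the library labelled High 2, 5.96 in Negative 1 and, against 3 counts of Neurog3, at least 684 in Negative 3. The colon libraries with Lgr5 above 40 CPM were those with less Neurod1 than Neurog3, and those with Lgr5 under 10 CPM were those with more. In small intestine the ratio was 2.40, 0.948 and 12.9 in Intestine 1 to 3, all with Lgr5 above 50 CPM. This ratio is given as a description, with no test.

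**Figure D2:**
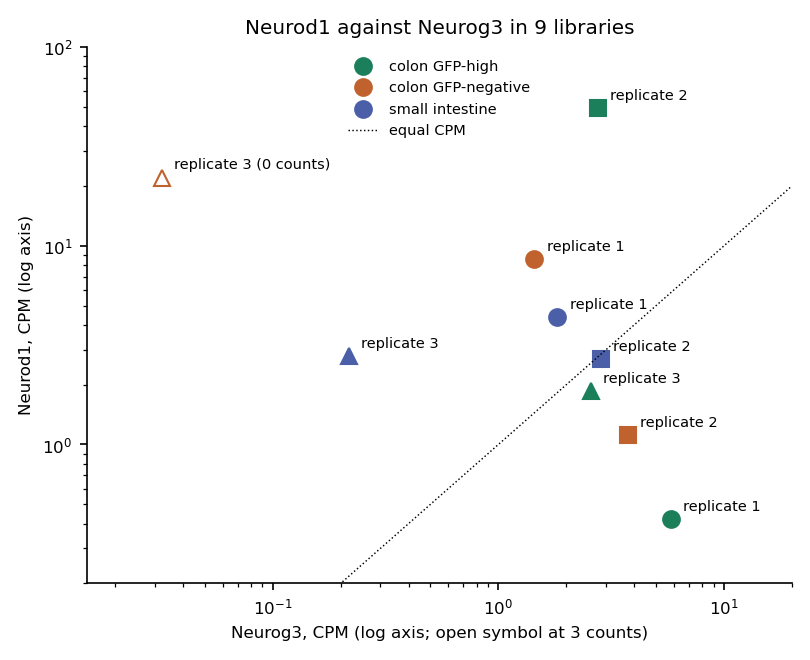
Neurod1 against Neurog3 in CPM, both on log axes, for the 9 libraries, with the dotted line at equal CPM and an open symbol placed at 3 counts for the library with no Neurog3 count. Colon libraries lie on both sides of the line, from a ratio of 0.0723 in High 1 to 17.9 in the library labelled High 2.

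Insm1 (ENSMUSG00000068154.6; chromosome 2, 146221921 to 146225020, plus strand) encodes, from a single exon, a zinc finger transcriptional repressor that acts during endocrine differentiation. It had 5.88, 19.4 and 1.19 CPM in High 1 to 3, 3.76, 1.44 and 14.3 CPM in Negative and 1.59, 2.54 and 1.70 CPM in small intestine. Unlike Neurod1, it ranked 3 of 9 in High 1. The homeodomain factor Nkx2-2 (ENSMUSG00000027434.12; chromosome 2, 147177546 to 147194243, minus strand) had 0.582, 3.98 and 0.326 CPM in High, 0.570, 0.777 and 0.922 CPM in Negative and 0.548, 0.410 and 0.511 CPM in small intestine. It stayed under 1 CPM in 8 libraries and was 4.32-fold above the second highest library in the library labelled High 2. The antisense gene Nkx2-2os covers 278 of its 2875 exon bases and reached 0.904 CPM, in that same library. Rfx6 (ENSMUSG00000019900.20; chromosome 10, 51677756 to 51730432, plus strand), a winged-helix factor needed for endocrine differentiation, had 0.525, 3.19 and 0.540 CPM in High. It had 1.45, 0.379 and 1.48 CPM in Negative and 0.864, 0.849 and 0.387 CPM in small intestine. Negative 1 and 3 were equal for Rfx6 within 0.03 CPM, whereas the other 7 downstream members were higher in Negative 3.

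Fev (ENSMUSG00000055197.5; chromosome 1, 74881509 to 74885419, minus strand), an ETS factor of serotonin-producing cells, had 3.44, 12.9 and 2.35 CPM in High, 3.45, 0.877 and 10.2 CPM in Negative and 2.25, 3.79 and 4.08 CPM in small intestine. Isl1 (ENSMUSG00000042258.14; chromosome 13, 116298281 to 116309689, minus strand), a LIM homeodomain factor, had 0.716, 3.64 and 0.633 CPM in High, 0.907, 0.917 and 2.70 CPM in Negative and 2.17, 1.68 and 1.91 CPM in small intestine. It was the member whose 3 small intestinal libraries all stood above the other 4 colon libraries, those outside the leading pair. Pax4 (ENSMUSG00000029706.16; chromosome 6, 28442334 to 28449353, minus strand), a paired-box repressor, had 1.74, 10.0 and 1.43 CPM in High, 3.54, 0.528 and 8.78 CPM in Negative and 0.658, 1.29 and 0.132 CPM in small intestine. All 3 GFP-high libraries were above all 3 small intestinal libraries, by 1.43 against 1.29 CPM at the closest. Pax6 (ENSMUSG00000027168.22; chromosome 2, 105668900 to 105697364, plus strand), a paired-box and homeodomain factor, had 0.200, 2.38 and 0.168 CPM in High, 0.415, 0.0797 and 1.39 CPM in Negative and 0.631, 0.0683 and 0.690 CPM in small intestine. It was counted in every library, with 7 to 219 reads.

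Per length of transcript, Neurod1 had the highest mean over the 9 libraries at 3.80 ± 5.90 RPKM (CPM per kilobase of the deposited gene length, SD, n = 9). Fev followed at 2.98 ± 2.47, Pax4 at 2.16 ± 2.56, Insm1 at 1.85 ± 2.12 and Neurog3 at 1.41 ± 1.07 RPKM. These neighbours did not differ beyond their spread. By the median over the 9 libraries Fev came first at 2.13 RPKM, then Neurog3 at 1.53 and Neurod1 at 1.02. Neurod1 reached 18.1 RPKM in the library labelled High 2. The other 4 had lower mean levels, with 0.428 ± 0.258 RPKM for Isl1, 0.334 ± 0.399 for Nkx2-2, 0.268 ± 0.223 for Rfx6 and 0.0573 ± 0.0656 for Pax6. In small intestine the order began with Fev at 2.09 ± 0.609 RPKM (SD, n = 3), then Neurod1 at 1.20 ± 0.346 and Neurog3 at 0.972 ± 0.790. In both colon groups the order of the means began with Neurod1, Fev and Pax4. In High 1 and High 3, however, Neurog3 was the highest member at 3.47 and 1.53 RPKM, and Neurod1 had 0.154 and 0.682. Neurog3 took 37.0% and 48.4% of the RPKM summed over the 9 members in High 1 and in the library labelled Negative 2. In the library labelled High 2 its share was 3.72%, although its own level there, 2.75 CPM, was near the median of the colon libraries, 2.66 CPM.

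Reporter-high and reporter-negative colon cells were compared to ask whether these factors go with Lgr5. With the libraries as labelled, no member was called at an adjusted p under 0.05 in edgeR's quasi-likelihood test, nor at an unadjusted p under 0.05, and 0% of the 20610 genes were called (226 at an unadjusted p under 0.05). DESeq2 called 1 gene, which is no member, and limma-voom none. All 9 estimates were positive, with a median log2 fold change of 0.43 (GFP-high over GFP-negative) against -0.02 over all genes tested. Their standard errors, 0.77 to 1.50, exceeded the estimates for all but Nkx2-2. Neurog3 averaged 3.71 ± 1.82 CPM over the High and 1.73 ± 1.89 CPM over the Negative libraries (SD, n = 3 each), a log2 difference of 1.11 ± 1.50 (SE) with an edgeR adjusted p = 1. In the same order Neurod1 was 17.2 ± 27.9 and 10.6 ± 10.6 CPM (0.69 ± 1.47, adjusted p = 1 in edgeR). The groups overlapped for all 9 members, while 4.41% of all genes tested had no overlap.

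The sign of 8 of the 9 estimates turned without High 2 and Negative 2, the colon pair whose labels Lgr5 contradicted. With n = 2 per colon group, Neurod1 had a log2 fold change of -3.76 ± 0.85 (SE), Pax6 -2.30 ± 1.29, Pax4 -1.96 ± 1.02 and Rfx6 -1.46 ± 0.79. Isl1 had -1.43 ± 0.74, Insm1 -1.35 ± 0.90, Fev -1.24 ± 0.66 and Nkx2-2 -0.72 ± 0.86. Neurog3 alone kept a positive estimate, 2.55 ± 1.95 (SE), with 1.44 and 0 CPM in the GFP-negative libraries that remained. None of these was called (edgeR adjusted p = 0.413 to 0.917), and the median over the members moved from 0.43 to -1.43. Leaving out only the library labelled High 2 gave the same 8 negative signs, with Neurod1 at -3.22, the lowest value over single libraries left out. Without Negative 3 alone, where Neurog3 had no count, the Neurog3 estimate was 0.53 ± 0.94 (SE).

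**Figure D3:**
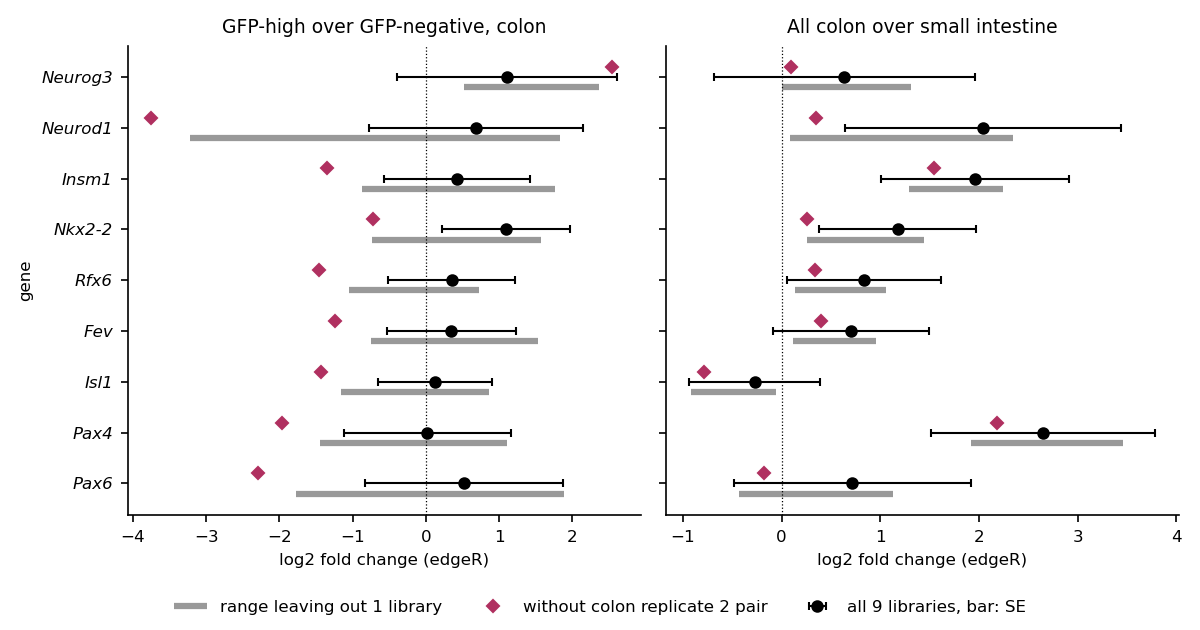
Log2 fold changes from edgeR for the 9 genes in High over Negative (left) and in all colon over small intestine (right), with points and SE bars for all 9 libraries, grey bars for the range when 1 library is left out and diamonds for the fit without the colon replicate 2 pair. On the left 8 diamonds lie below 0 and that of Neurog3 at 2.55.

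All colon libraries were set against small intestine, with equal weight on the 2 colon groups as labelled. Each labelled group enters with its own fitted level, and the groups share an estimate of the spread within them. The estimates and p-values therefore still depend on the GFP labels. Again no member was called in edgeR, where 8.79% of all genes tested were, and 1 member, Pax4, had an unadjusted p under 0.05. Pax4 was 4.34 ± 4.05 CPM (SD, n = 6) in colon and 0.693 ± 0.579 CPM (n = 3) in small intestine. Its log2 fold change was 2.65 ± 1.14 (SE), with an edgeR adjusted p = 0.191. DESeq2 called it (log2 fold change 2.71 ± 0.93, adjusted p = 0.0232), as its only called member, and over the alternatives its adjusted p ran up to 0.597. Insm1 had a log2 fold change of 1.96 ± 0.95 (adjusted p = 0.242), Neurod1 2.04 ± 1.40 (0.406), Nkx2-2 1.18 ± 0.80 (0.398) and Isl1 -0.27 ± 0.66 (0.839), all in edgeR. Neurog3 had 0.64 ± 1.32, which became 0.01 without the library labelled Negative 2 and 1.31 without Intestine 2. The median over the members was 0.84, against 0.00 over all genes tested, and 8 of 9 estimates were positive. That median was 0.15 without the library labelled High 2 and 0.34 without the pair. Without the library labelled High 2 Neurod1 moved from 2.04 to 0.08 and Pax6 from 0.72 to -0.44. Groups overlapped for all 9 members, while 17.9% of genes tested did not overlap.

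Taken separately, the 2 colon groups share the small intestinal libraries, and neither gave a called member. GFP-high over small intestine had a median log2 fold change of 1.19 over the members, against 0.02 over all genes tested, of which 5.69% were called (3.94% higher and 1.75% lower). Pax4 was the 1 of 9 members whose groups did not overlap there, while 27.3% of all genes tested did not overlap. Small intestine over GFP-negative had a median of -0.63 over the members, with 5.66% of all genes called (1.71% higher and 3.95% lower). Nkx2-2 was the 1 member without overlap, at 0.570 CPM or more in GFP-negative and 0.548 CPM or less in small intestine, while 27.5% of genes did not overlap.

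Atoh1, Spdef and Gfi1 were higher in colon than in small intestine and Dll1 was lower, among genes of the Notch pathway and the secretory fate. Of these 12 Notch and secretory fate genes 11 were tested, and none was called between the colon fractions. In all colon over small intestine 3 were higher and 1 lower, where 5% of all genes tested were called higher and 3.79% lower. Atoh1, which opens the secretory fate, had 241, 356 and 120 CPM in High, 328, 285 and 227 CPM in Negative and 38.2, 40.9 and 27.7 CPM in small intestine (log2 fold change 2.86 ± 0.38, adjusted p = 0.00287 in edgeR). The colon level of Atoh1 was above that of small intestine in 6 of 6 libraries, while Neurog3 overlapped. Spdef, a goblet and Paneth cell factor, was also higher in colon (3.22 ± 0.35, adjusted p = 0.0012), as was Gfi1, a repressor downstream of Atoh1 (2.41 ± 0.50, adjusted p = 0.02; 0.0838 and 0.098 without Intestine 1 and 3). Dll1, a Notch ligand of secretory progenitors, was lower in colon (-1.36 ± 0.28, adjusted p = 0.0193; 0.0586 without Negative 1 and 0.0993 without Intestine 3). The most abundant members of the list, Hes6 and Hes1, had 162 to 466 and 119 to 352 CPM over the 9 libraries and were not called.

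Among 16 other transcriptional regulators of enteroendocrine cells, all tested, none was called between the colon fractions. In all colon over small intestine 2 were higher and 2 lower. Foxa1, a forkhead factor of L and D cells, had 77.5 to 116 CPM in colon and 18.2, 42.1 and 40.0 CPM in small intestine (log2 fold change 1.51 ± 0.30, adjusted p = 0.0169 in edgeR, and 0.0581 without Intestine 3). The related Foxa2 was higher too (1.30 ± 0.32, adjusted p = 0.0397). Its call was lost without each library in turn, except the library labelled High 2 and Negative 3 (adjusted p up to 0.122). Onecut2, a factor with a cut domain and a homeodomain, had 24.4, 13.2 and 21.5 CPM in small intestine and was lower in colon, at most 0.109 CPM in High and no count in Negative (adjusted p = 0.000346). Pdx1, a homeodomain factor of the duodenum, had 11.1, 11.7 and 8.32 CPM in small intestine and at most 2.10 CPM in colon (-3.67 ± 0.97, adjusted p = 0.0493). The Pdx1 call was lost without each library in turn, except High 1 and High 2 (adjusted p up to 0.126). Sox4, at 30.3 to 139 CPM, was not called.

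The granin Chga and the enzyme Tph1 were highest in the same 2 libraries as the 8 downstream factors, while most hormone genes did not have that order. Chga, a granin of secretory granules, had 28.5, 4311 and 82.1 CPM in High, 1063, 18.7 and 1130 CPM in Negative and 102, 94.4 and 137 CPM in small intestine. Tph1, which makes serotonin, had 14.2, 2645 and 34.8 CPM in High, 446, 4.39 and 1341 CPM in Negative and 17.4 to 40.0 CPM in small intestine. Of the granin and peptide processing list 9 of 11 tested genes were highest in the library labelled High 2, and 6 of 11 also had Negative 3 in second place. Of the hormone list 7 of 12 were highest in the library labelled High 2 and 2 of 12 had that first and second place, where the shares over all genes tested were 9.57% and 2.46%. In Negative 3 the L cell hormone genes Gcg and Insl5 had 1.82 CPM and no count. The 8 factors other than Neurog3 summed to 105 CPM in that library and 61.7 CPM in Negative 3, and to 6.11 to 22.7 CPM in the other 7. For each 1000 CPM of Chga that sum was 24.3 in the library labelled High 2, 21.3 in Negative 1 and 54.6 in Negative 3. It was 473 in High 1, 326 in the library labelled Negative 2, 104 in High 3 and 88.9 to 141 in small intestine. Relative to Chga the factors were highest in the 2 libraries where Chga was lowest. Chga ran from 18.7 to 4311 CPM and the factor sum only from 6.11 to 105 CPM. The order of this quotient thus mostly follows Chga and describes little of the factors. Chgb, another granin, and Pcsk1n, an inhibitor of prohormone processing, had 23.2 to 3662 and 0.259 to 227 CPM over the 9 libraries, and the hormone gene Sct had 12.4 to 873 CPM. All 3 were highest in the library labelled High 2. No gene of either list was called between the colon fractions. In all colon over small intestine none of 11 granin and processing genes was called, and of 12 hormone genes 1 was higher, Insl5 (adjusted p = 0.0376 in edgeR), and 3 were lower, Gip (0.00477), Ghrl (0.00535) and Cck (0.0247). Insl5 reached 52.8 CPM in colon and at most 0.0195 CPM in small intestine, while Gip stood at 9.42 to 412 CPM in small intestine and at most 0.554 CPM in colon. Insl5 lost its call without each library in turn except High 3 and Negative 3 (adjusted p up to 0.156). Cck lost it without High 1, High 3, the library labelled Negative 2, Intestine 1 and Intestine 3 (adjusted p up to 0.108).

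**Figure D4:**
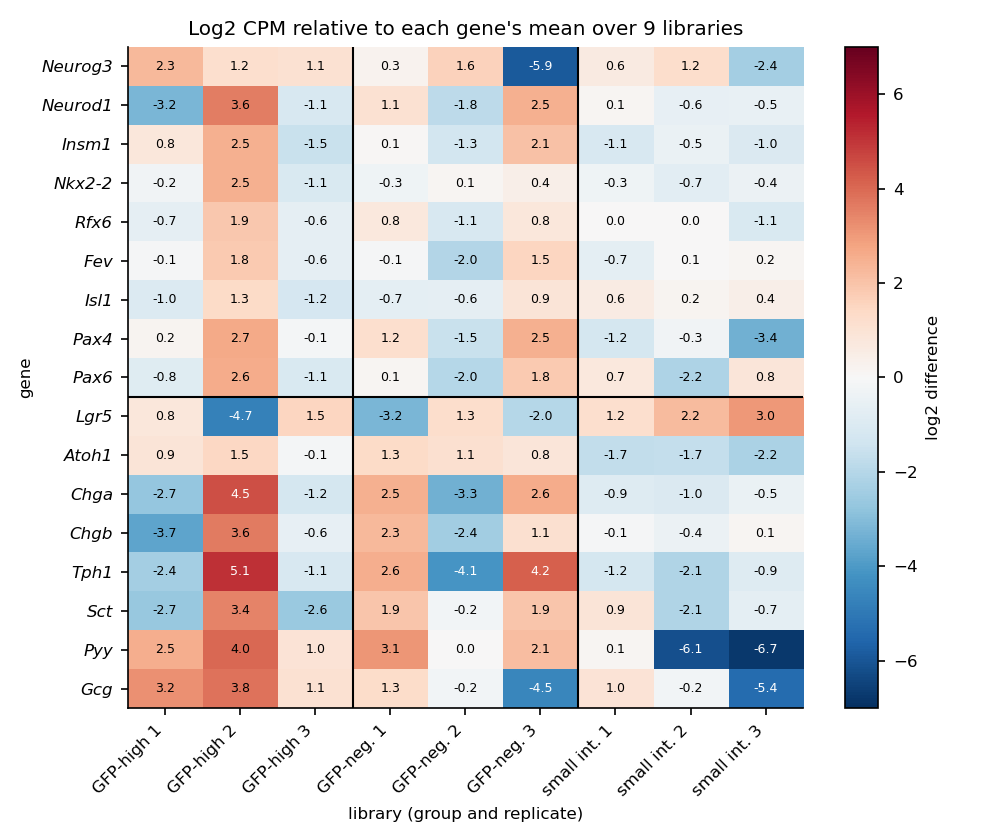
Log2 CPM (prior count 2) of the 9 factors, above the black line, and of Lgr5, Atoh1 and 6 endocrine products, below it, each relative to the gene's own mean over the 9 libraries. High 2 (as labelled) and Negative 3 are above the mean for 8 factors and for Chga, Chgb, Tph1, Sct and Pyy. In Negative 3 Nkx2-2 is only at 0.42, while Neurog3 is at -5.89 and Gcg at -4.55. Negative 1 is also high for Chga, Chgb, Tph1, Sct and Pyy. It exceeds Negative 3 for Chgb (2.28 against 1.14) and Pyy (3.11 against 2.14). High 1 also exceeds Negative 3 for Pyy, at 2.52.

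Summed by list, markers of leukocytes, stem cells and goblet cells set the same 3 colon libraries apart. The sums of tuft cell markers and of enteric neuron and glia markers did not. Leukocyte markers (12 genes) summed to 2.32, 209 and 20.6 CPM in High, 524, 3.89 and 1594 CPM in Negative and 13.6 to 35.7 CPM in small intestine. Their sum was thus highest in Negative 3, then Negative 1, then the library labelled High 2. The 10 stem cell markers were lowest in these 3 libraries, at 245, 289 and 252 CPM, against 1021 to 1137 CPM in the other colon libraries. The 8 goblet cell markers summed to 14197, 44082 and 7476 CPM in High and to 46813, 17378 and 23393 CPM in Negative, so the same 3 colon libraries were highest. The 10 tuft cell markers reached 1044 CPM in High 3 and 602 CPM in the library labelled High 2, against 162 to 261 CPM in the other colon libraries. In Intestine 1 to 3 they summed to 193, 355 and 1366 CPM. The part of these cell types in the levels of the endocrine factors was not tested. The 12 markers of enteric neurons and glia summed to 13.2 CPM in the library labelled High 2 and 15.6 CPM in High 3, against 2.76 to 8.94 CPM in the other 7. Most of this sum in High 2 and High 3 was Chat, which tuft cells also express, at 8.12 and 14.0 CPM. Of the 6 genes of this list that were tested, 3 were highest in the library labelled High 2 and 2 also had Negative 3 in second place. Over all genes tested these shares were 9.57% and 2.46%, so by gene this list did show that order in part. Sox10, a defining marker of enteric glia, had no count in any library, and Hand2, a factor of enteric neurons, had 2 counts in 1 library. The part of neurons and glia in the levels of the factors was not tested. Pan-epithelial markers such as Epcam and Krt8 were abundant in all 9 libraries, with a list sum of 10290 to 25228 CPM. In bulk RNA, fewer endocrine cells and less RNA per endocrine cell cannot be told apart.

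Among themselves, the 8 downstream members lay closer to each other than to Neurog3. The likeness of a pair is the mean absolute difference, over the 9 libraries, of log2 CPM after each gene is centred on its own mean. Rfx6 and Fev were nearest at 0.57, Rfx6 and Isl1 stood at 0.63, Nkx2-2 and Rfx6 at 0.66, and Insm1 and Fev at 0.67. Neurog3 stood at 2.04 from its nearest member, Rfx6, and at 2.98 from Neurod1, the widest pair. These distances of Neurog3 include Negative 3, where it had no count. Its centred value there, -5.89, depends on the prior count, and distances without that library were not computed. Outside the member list, the genes nearest to the mean profile of the 9 members were Tac1, which encodes the precursor of substance P (0.33), Scgn, the calcium-binding secretagogin of endocrine cells (0.36), Rap1b (0.37), Dock11 (0.39), Trappc2 (0.39), an unnamed long noncoding RNA (0.40), Vdac3 (0.40) and Upb1 (0.41). The median over the 13532 genes compared was 0.91. To Neurog3 the nearest were Gm54310 (0.73), Cyp4f41-ps (0.73), Abcc8 (0.78), Syt3 (0.81) and Gm39606 (0.81), against a median of 1.86. All 5 were low, with at most 6.42 CPM in any library. To the mean of the 8 members without Neurog3, a target chosen after seeing the data, the nearest were Lrp11 (0.38), Fxyd6 (0.45) and Celf3 (0.47), against a median of 1.08. These distances describe 9 libraries that share tissue and depth, and they carry no test.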

How the data were processed

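The labels' protocols describe GFP sorting and RNA extraction. The submitters' processing notes name mm10 as the build and list edgeR, Subread, featureCounts and STAR. Their versions, the strand setting and the annotation were not given in the sources. The deposited table gives the authors' raw read count per gene and library, log2 CPM, log2 RPKM and log2 TPM, gene length, library total and a TMM factor, a deposited ratio recomputed within 1e-06. Levels here are CPM from the deposited counts, totals and factors, and RPKM from those and the deposited length, while tests used the counts only.

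Tests ran in R 4.3.3 with edgeR 4.0.16 (filterByExpr by group, TMM on the 20610 genes kept, glmQLFit on all 9 libraries, two-sided glmQLFTest, Benjamini-Hochberg over all genes tested), called at an adjusted p under 0.05. The fit was tested on simulated data. DESeq2 1.42.0 and limma 3.58.1 (voom), other scalings and filters, blocks and left-out libraries were alternatives. With a common coefficient of biological variation of 0.726, spread between libraries limits precision more than depth. Replicates differed beyond sampling noise (chi-square per gene 328 to 792), and each counts as 1 sample. The floor of 3 counts covers counting error only.

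Members, lists and alternatives were chosen with earlier results of these data known. Of other lists, called genes and the 3 most abundant were to be named, with the genes nearest in pattern. For tuft, goblet, stem and pan-epithelial markers sums are given instead. Besides Spdef, those lists had called genes in all colon over small intestine. These were Agr2, Muc2, Spink4 and Gnat3 (higher) and Olfm4 and Vil1 (lower). Coordinates are GENCODE M21 on GRCm38, and promoters are from RefSeq GRCm38.p6. The counts may rest on another annotation. The main fit did not pair libraries by replicate number or by the tag in their names.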

Additional observations from a re-analysis of the deposited data

How the results depend on the processing

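No member was called under any alternative in GFP-high over GFP-negative, GFP-high over small intestine or small intestine over GFP-negative. In all colon over small intestine DESeq2 called 1 (Pax4) and the other alternatives 0. Genes called over the whole table moved more. Between the colon fractions DESeq2 called 1 and edgeR 0. For GFP-high over small intestine the 1173 calls became 2713 in DESeq2, 508 with the replicate number as a block, 18 with the tag in the library names as a block and 508 without the pair of colon replicate 2 libraries, and ran from 564 to 1375 with 1 library left out. For small intestine over GFP-negative the 1166 calls became 2870, 532 and 0 in DESeq2 and with these 2 blocks, and 531 to 1078 with 1 library left out. For all colon over small intestine the 1812 calls became 3618, 895 and 18, 1089 without the pair, and 991 to 1787 with 1 library left out.

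Deviations from group means of libraries with the same replicate number correlated between -0.604 and 0.303 over genes. Those of libraries with the same name tag correlated between -0.604 and 0.275. The value of -0.604 is that of High 2 and Negative 2, whose labels Lgr5 contradicted and which enter the group means. These correlations therefore cannot decide whether numbers or tags pair the libraries. The tag block leaves 2 residual degrees of freedom and takes nothing from Negative 3 and Intestine 1, whose tags occur once. The regulator, Notch and secretory fate, and hormone lists held 12 genes called in all colon over small intestine. All 12 lost the call with the tag block, and the losses given next are also of these genes. The replicate number block lost Foxa2 (edgeR adjusted p = 0.124), Pdx1 (0.123), Insl5 (0.0982), Cck (0.0687), Gfi1 (0.0661) and Dll1 (0.0616). Leaving out the pair lost Foxa2 (0.0808), Insl5 (0.0782), Foxa1 (0.0693) and Gfi1 (0.055). Without TMM Foxa1 (0.0511) and Foxa2 (0.113) were lost, with RLE scaling Pdx1 (0.0533), and in limma-voom Insl5 (0.45) and Gip (0.138). DESeq2 gave no adjusted p for Gip and Pdx1.

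Member signs turned most between the colon fractions. With the replicate number as a block the log2 fold changes were Neurod1 -0.70, Rfx6 -0.11, Isl1 -0.0498 and Pax4 -0.76. The tag block gave Neurod1 -0.66, and limma-voom Neurod1 -0.84 and Isl1 -0.20. Without the pair they were Neurod1 -3.76, Insm1 -1.35, Nkx2-2 -0.72, Rfx6 -1.46, Fev -1.24, Isl1 -1.43, Pax4 -1.96 and Pax6 -2.30, with medians over the members of -1.43 (GFP-high over GFP-negative) and -0.22 (GFP-high over small intestine). With 1 library left out the ranges were -3.22 to 1.83 for Neurod1, -0.88 to 1.77 for Insm1, -0.73 to 1.57 for Nkx2-2, -1.05 to 0.73 for Rfx6, -0.74 to 1.53 for Fev, -1.16 to 0.87 for Isl1, -1.44 to 1.11 for Pax4 and -1.77 to 1.89 for Pax6. The medians ran from -1.05 to 1.28, for GFP-high over small intestine from -0.22 to 1.62 and for all colon over small intestine from 0.15 to 1.13, where limma-voom gave 0.46 and the tag block 0.10. In all colon over small intestine the tag block turned Insm1 (-0.07305), Nkx2-2 (-0.18) and Fev (-0.66), and Pax6 was -0.18 without the pair and -0.44 to 1.13 with 1 library left out. The cause was not tested. Neurog3 kept its sign in both comparisons under every alternative run. Its estimate for GFP-high over GFP-negative ran from 0.53 to 2.37 with 1 library left out. With at least 1 CPM asked in 3 libraries Nkx2-2 and Pax6 were not tested. A fit of only the groups compared was not run for all colon. Depth limits most the value of Pax6, with as few as 7 counts, and of Neurog3 where it had none.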

Other observations

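The genes in this paragraph were chosen after their values were seen. Lmx1a and Runx1t1, both regulators outside the member list, had their 2 highest levels in the library labelled High 2 and in Negative 3. Of the 16 other regulators, 4 were highest in the library labelled High 2, and 2 of 16 also had Negative 3 in second place. Over all genes tested these shares were 9.57% and 2.46%. Most of that list thus did not have this order. Lmx1a, a LIM homeodomain factor of enterochromaffin cells, had 0, 7.41 and 0.894 CPM in High 1 to 3, 3.38, 0.498 and 7.93 CPM in Negative and 0.849 to 1.33 CPM in small intestine. Runx1t1, a corepressor, had 0, 6.52 and 0.223 CPM in High, 1.72, 0.140 and 3.13 CPM in Negative and at most 0.527 CPM in small intestine. Hormones differed between the libraries with high endocrine factor levels. Gcg, the proglucagon gene of L cells, had 619 CPM in the library labelled High 2 and 1.82 CPM in Negative 3, although Tph1 was at 2645 and 1341 CPM there. Insl5, a hormone of colonic L cells, had 52.8 CPM and no count in these libraries, and Neurog3 had 2.75 CPM and no count. In High 1, which had the highest Neurog3 and the lowest Neurod1, Gcg stood at 399 CPM and Insl5 at 23.6 CPM, while Tph1 was 14.2 CPM and Lmx1a had no count.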
